A study of Rattus norvegicus with 16 samples.

Results

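Apelin, vascular endothelial growth factor (VEGF) and angiopoietin signalling genes were followed in the infarct zone of rat hearts after coronary ligation with and without an injected hydrogel. The genes were chosen by name: Apln, Aplnr, Vegfa, Vegfb, Kdr, Flt1, Tek, Tie1, Angpt1 and Angpt2. Of these 10 genes, 9 had a row in the deposited table of 17085 genes, and Kdr, a VEGF receptor, is not analysed here. All 9 passed the filter on low counts, which left 11376 genes. The 4 groups held 4 libraries each: MI_stiff and MI_soft hearts were injected with a stiff or a soft hydrogel after ligation of the left anterior descending coronary artery, MI hearts were ligated without a gel, and Sham hearts had the control operation. A hydrogel is a water-swollen polymer network. The labels give neither the strain, age and sex of the rats nor the time since ligation. One protocol label writes MI/R, which often stands for reperfused infarction, and the labels do not settle whether flow was restored. Nothing states that libraries sharing a group are separate hearts, and p-values therefore describe variation among libraries that could be partly technical.

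Apelin, the product of Apln, is a secreted peptide that activates the G protein-coupled receptor encoded by Aplnr, which in the heart is found on endothelial cells and is known for vessel growth and for support of contraction. VEGF-A drives the growth of blood vessels through the receptor tyrosine kinases of Kdr and Flt1, and VEGF-B binds that of Flt1 but not that of Kdr. Flt1 holds VEGF-A with high affinity but signals weakly, so that it is often described as a decoy. The angiopoietins act on the endothelial receptor Tie2, the product of Tek. Angiopoietin 1 activates it and keeps vessels quiet, angiopoietin 2 opposes this in many settings, and Tie1 is a related receptor that modulates Tie2.

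Library totals lay between 10940685 and 14456186 counts. MI 2, MI 3, MI 4 and MI_soft 4 had the fewest genes with a count (10470 to 11785, against 12019 to 12820 in the other libraries). MI 1 correlated at 0.957 to 0.964 with MI_soft 1 to 3 across genes, and at 0.873 to 0.898 with MI 2 to 4. Without MI 2, MI 3, MI 4 and MI_soft 4 (below, the low-detection libraries), MI 1 is the only MI library, and every p-value against or for MI under that setting takes its spread from the other groups. Of 12 listed endothelial markers 8 had a row, and their sum in TPM, a length-scaled abundance, lay between 218 and 352 in MI_stiff, 191 and 210.5 in MI_soft, 257.8 and 320.3 in MI, and 187.2 and 234.6 in Sham. None of the 8 was at 0 in any library. Cardiomyocyte markers, which identify heart muscle, summed to between 13890 and 27090 TPM in MI_stiff, 18590 and 27450 in MI_soft, 13730 and 22760 in MI, and 28520 and 44730 in Sham. In such bulk samples, fewer cells of a type and less RNA per cell cannot be told apart.

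A gene is said to change where its adjusted p was under 0.05 in edgeR's quasi-likelihood test over all genes. In MI against Sham 5 of the 9 genes changed, where 36.6% of all tested genes changed (20.2% higher and 16.4% lower). Angpt2 rose, and Apln, Aplnr, Vegfb and Angpt1 fell. In MI_soft against Sham 6 changed, against 26.1% of all genes (16.4% higher and 9.71% lower), with Angpt2 higher and Apln, Aplnr, Vegfa, Vegfb and Angpt1 lower. In MI_stiff against Sham 3 changed, against 21.2% of all genes (12.7% higher and 8.44% lower), with Angpt2 higher and Vegfa and Vegfb lower. In normalised counts (CPM), the libraries of the groups did not overlap for 5 of the 9 genes in MI_stiff (38.4% of all genes), 8 in MI_soft (40.9%) and 6 in MI (38%), each against Sham. The median log2 difference of the 9 genes was -1.38 in MI, -1.25 in MI_soft and -0.35 in MI_stiff, against 0.06, 0.01 and 0.02 over all tested genes. These 3 comparisons share their Sham libraries.

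Among the ligated groups Aplnr was the only one of the 9 genes that changed by edgeR. In MI_stiff against MI_soft it rose, where 0.0967% of all genes changed (0.0615% higher and 0.0352% lower), and by p-value it ranked 2 of 11376 genes. In MI_stiff against MI it also rose, at rank 17, where 1.19% of all genes changed (0.492% higher and 0.694% lower). In MI_soft against MI 0 of the 9 changed by edgeR (0.0264% of all genes, 0% higher and 0.0264% lower), with 5 at an unadjusted p under 0.05 (15.5% of all genes), 1 called by DESeq2 (Tek) and 0 by limma-voom. Libraries did not overlap in CPM for 2 of the 9 genes between MI_stiff and MI_soft (11.3% of all genes), 1 between MI_stiff and MI (7.88%) and 0 between MI_soft and MI (4.24%).

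**Figure D1:**
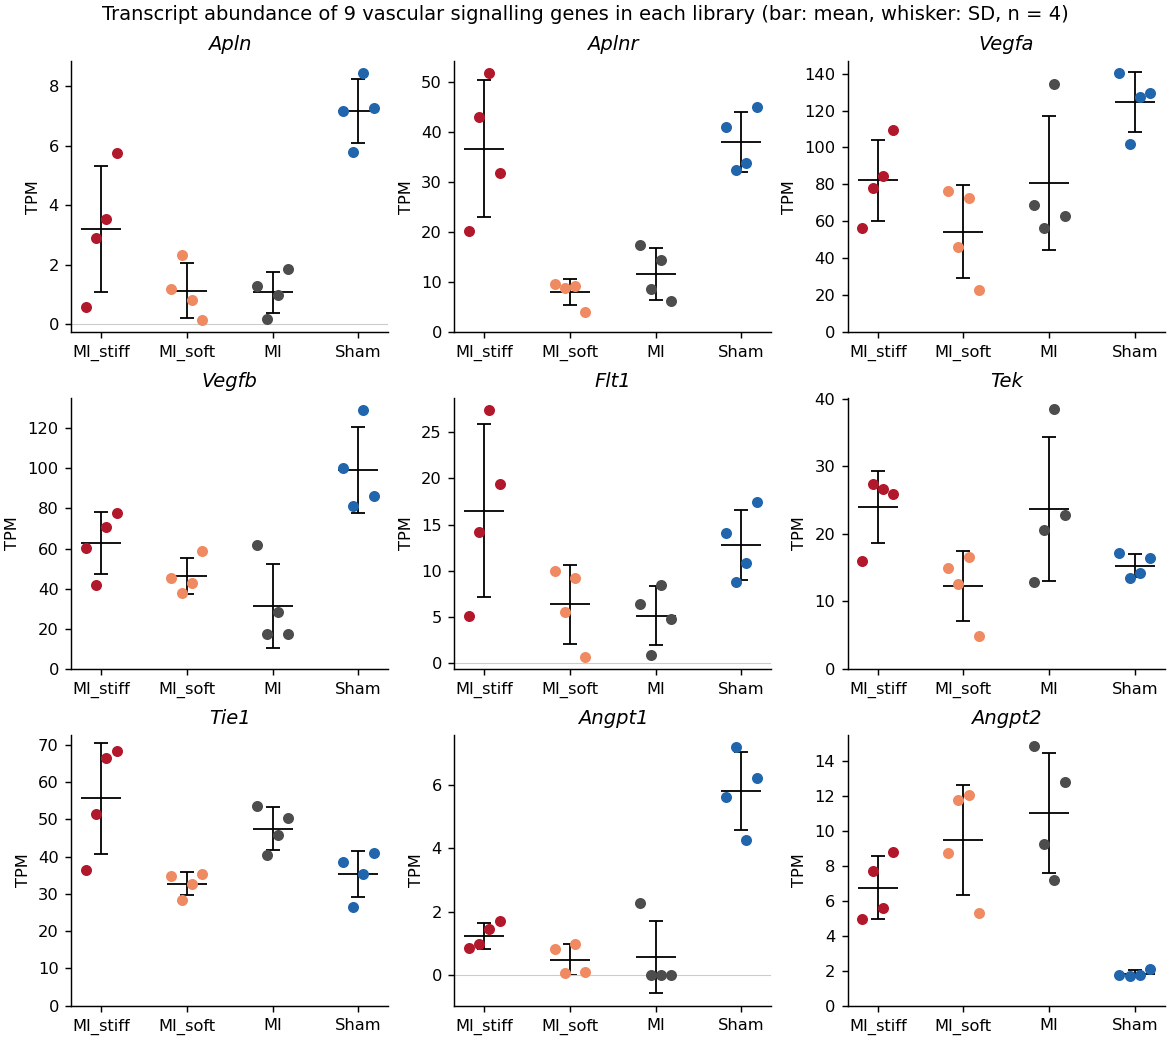
Abundance in TPM (vertical axes, linear) of 9 genes in the libraries of MI_stiff, MI_soft, MI and Sham. Points are libraries, horizontal bars means and whiskers SD (n = 4). For Aplnr the MI_stiff libraries (20.3 to 51.9 TPM) lie above every MI_soft (4.11 to 9.73) and MI library (6.24 to 17.5), and for Angpt2 every ligated library lies above Sham (1.72 to 2.11).

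The apelin receptor transcript Aplnr had 20.3, 43.0, 51.9 and 31.8 TPM in MI_stiff 1 to 4. It had 9.73, 8.80, 9.27 and 4.11 TPM in MI_soft 1 to 4, 17.5, 8.65, 14.5 and 6.24 TPM in MI 1 to 4, and 41.1, 32.4, 33.9 and 45.1 TPM in Sham 1 to 4. The lowest MI_stiff library thus stood above the highest library of either other ligated group, and the MI_stiff and Sham ranges overlapped. In CPM, counts scaled to the normalised library size, Aplnr averaged 134 ± 50.5 in MI_stiff and 32.0 ± 5.92 in MI_soft (SD, n = 4 each), a difference of 2.07 ± 0.27 on the log2 scale (SE), or 4.20-fold, with edgeR adjusted p = 0.00273. This call held under each of the 23 alternative settings, with log2 differences of 1.91 to 2.24 and adjusted p-values up to 0.0413. Lymphocyte and lymphatic markers also separated these groups: the lymphocyte list summed to 3.10 to 11.1 TPM in MI_stiff and 31.4 to 287.6 in MI_soft, and the lymphatic list to 82.9 to 165.8 in MI_stiff and 198.4 to 295.7 in MI_soft. All 6 lymphocyte markers were measured, Ms4a1 among them was at 0 in some MI_stiff libraries, and none of these 11 genes changed between the gels by edgeR, with a median log2 difference of -3.38 for the lymphocyte list and 0.0044 for the lymphatic list. The endothelial marker sum separated the gels as well, at 218 to 352 TPM in MI_stiff and 191 to 210.5 in MI_soft. Of its 8 genes 0 changed between the gels by edgeR, with a median log2 difference of 0.33. The part of lymphocytes, lymphatic cells and endothelial cells in the Aplnr result was not tested.

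Against MI (48.4 ± 13.7 CPM), Aplnr in MI_stiff was higher by 1.47 ± 0.26 (adjusted p = 0.0184). That call held in 18 of 23 settings, and the adjusted p was 0.0585 without MI 2, 0.0759 without MI 4, 0.0639 without MI_stiff 3, 0.0726 without the low-detection libraries and 0.0945 when only these groups were fitted. The log2 difference stayed between 1.31 and 1.66 throughout. The lymphatic marker sum also separated these groups, at 82.9 to 165.8 TPM in MI_stiff and 276.4 to 1100 in MI. Of its 5 genes 1 changed: Ccl21, a chemokine of lymphatic vessels, was lower in MI_stiff by a log2 difference of -2.89 ± 0.40 (52.1 ± 13.7 against 387 ± 216 CPM; adjusted p = 0.00676), at rank 1 of all genes. Over all tested genes 1.19% changed between MI_stiff and MI. By mean CPM Ccl21 was the highest of the 5 lymphatic genes in MI. Lyve1 had 103 CPM in MI and 56.2 in MI_stiff, Pdpn 32.1 and 14.4, and Flt4 13.1 and 8.83. Prox1 went the other way, at 0.246 CPM in MI and 1.21 in MI_stiff. The part of lymphatic cells in the Aplnr result was not tested. Aplnr fell by 1.82 ± 0.27 in MI against Sham (171 ± 18.7 CPM; adjusted p = 6.93e-05), and its difference in MI_soft against Sham was -2.42 ± 0.27 (adjusted p = 8.17e-06). In MI_stiff against Sham the difference was -0.35 ± 0.26 with adjusted p = 0.372 and a 95% interval of -0.89 to 0.19, so a loss of the size seen in MI lay outside the interval. MI_soft against MI gave -0.60 with an interval of -1.15 to -0.05 and adjusted p = 0.291.

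Aplnr was also set against the endothelial markers. It amounted to 9.32%, 14.7%, 14.7% and 10.2% of the summed TPM of the 8 markers in MI_stiff 1 to 4. That share was 2.15% to 4.65% in MI_soft, 2.42% to 5.73% in MI and 14.9% to 19.2% in Sham. On this scale too the MI_stiff libraries stood apart from MI_soft and MI, and they now lay below every Sham library. Of the 8 markers 0 rose and 0 fell in MI_stiff, 0 rose and 2 fell in MI_soft, and 2 rose and 1 fell in MI, against Sham. Among all tested genes 12.7% rose and 8.44% fell in MI_stiff, 16.4% and 9.71% in MI_soft, and 20.2% and 16.4% in MI. The marker counts were not tested against those shares. In MI, Cdh5, the endothelial cadherin, fell by 1.43 ± 0.40 (adjusted p = 0.011), whereas Vwf, von Willebrand factor, rose by 1.24 ± 0.26 (adjusted p = 0.00161).

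**Figure D2:**
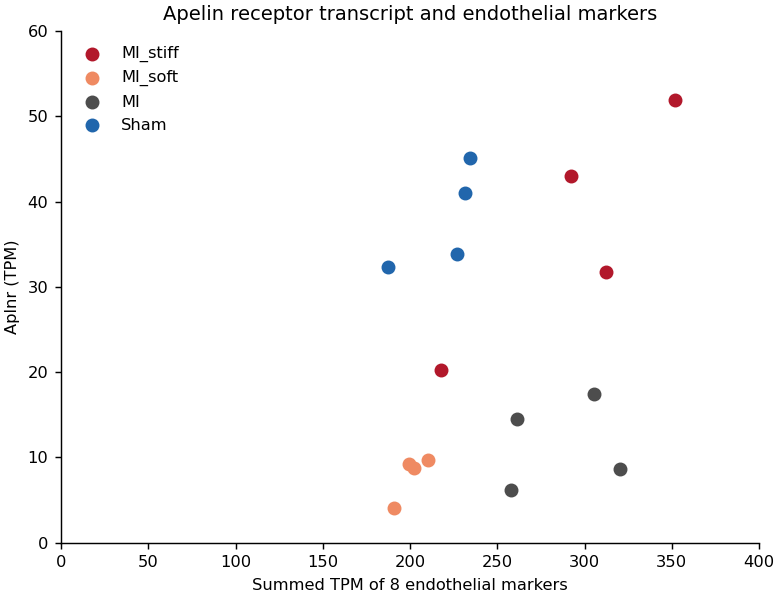
Aplnr (vertical axis, TPM) against the summed TPM of 8 endothelial markers (horizontal axis) in each library, coloured by group. MI libraries hold more marker transcript (257.8 to 320.3) than Sham (187.2 to 234.6) with less Aplnr, and MI_stiff libraries sit above MI_soft and MI.

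Apln, the gene of the ligand, averaged 3.19 ± 2.12 TPM in MI_stiff, 1.13 ± 0.918 in MI_soft, 1.08 ± 0.701 in MI and 7.16 ± 1.07 in Sham, below Aplnr in each group. It had 10, 45, 51 and 74 counts in MI_stiff 1 to 4, 17, 38, 13 and 3 in MI_soft 1 to 4, 19, 3, 14 and 32 in MI 1 to 4, and 112, 100, 138 and 115 in Sham 1 to 4. Every ligated library lay under every Sham library. Apln fell by 2.75 ± 0.70 in MI against Sham (1.41 ± 1.11 against 9.50 ± 0.87 CPM; adjusted p = 0.00571), and its difference in MI_soft against Sham was -2.84 ± 0.70 (adjusted p = 0.00654). In MI_stiff, with 3.24 ± 1.77 CPM, the difference from Sham was -1.55 with a 95% interval of -2.94 to -0.16 and adjusted p = 0.105; it passed in 3 of 23 settings, at 0.0174 with limma-voom, 0.00797 when only these groups were fitted and 0.00955 without the low-detection libraries. MI_stiff 1 had the lowest TPM of its group for each of the 9 genes except Vegfb, and the lowest endothelial marker sum (218 TPM). Against MI_soft, Apln in MI_stiff differed by 1.29 (interval -0.13 to 2.71, adjusted p = 0.395), and against MI by 1.20 (-0.23 to 2.63, adjusted p = 0.38).

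By mean TPM Vegfa was the most abundant of the 9 transcripts in every group. It had 56.7, 78.2, 84.4 and 109.7 TPM in MI_stiff 1 to 4, 76.4, 45.9, 72.5 and 22.7 in MI_soft 1 to 4, 68.8, 56.5, 134.5 and 62.7 in MI 1 to 4, and 140.2, 101.8, 127.0 and 129.2 in Sham 1 to 4. MI 3 and MI_stiff 4 lay within the Sham range in TPM, and the other ligated libraries lay under it. On the CPM scale, MI_stiff 4 (304.6) lay under the Sham range (531.2 to 558.5) and MI 3 (579.8) above it. In CPM, Vegfa fell by 1.396 ± 0.28 in MI_soft against Sham (205 ± 63.6 against 540 ± 12.8 CPM; adjusted p = 0.00165). It also fell by 0.93 ± 0.28 in MI_stiff against Sham (284 ± 33.6 CPM; adjusted p = 0.0252), a call lost without MI_stiff 1 (0.0739), MI_stiff 3 (0.0567), Sham 1 (0.0617), Sham 2 (0.0519), Sham 3 (0.0542) or Sham 4 (0.0558). In MI against Sham the difference was -0.66 ± 0.28 (342 ± 166 CPM in MI; adjusted p = 0.0739). Without MI 3 it was -1.04 with adjusted p = 0.0036, without MI_soft 4 it was -0.63 with 0.0463, with MI 1 as the only MI library it was -1.395 with 0.000512, and DESeq2 and limma-voom gave adjusted p = 0.0316 and 0.0344 with all libraries. MI_soft against MI gave -0.74 for Vegfa (adjusted p = 0.236), -0.94 without MI 1 (0.0272) and 0.19 with MI 1 as the only MI library (0.931).

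Vegfb, whose product binds Flt1 and which heart muscle expresses strongly, had 60.4, 41.9, 70.8 and 77.5 TPM in MI_stiff 1 to 4, 45.4, 37.8, 42.8 and 58.8 in MI_soft 1 to 4, 61.8, 17.6, 28.6 and 17.3 in MI 1 to 4, and 100.1, 81.2, 129.1 and 86.2 in Sham 1 to 4. No ligated library reached the lowest Sham library. Vegfb fell by 1.84 ± 0.29 in MI (adjusted p = 0.000139) against Sham (55.5 ± 21.1 against 199.5 ± 36.4 CPM), and with MI 1 as the only MI library the difference was -1.22 (adjusted p = 0.00308). The differences from Sham were -1.14 ± 0.29 in MI_soft (90.5 ± 40.1 CPM; adjusted p = 0.00731) and -0.97 ± 0.29 in MI_stiff (102 ± 17.2 CPM; adjusted p = 0.0217), both lower. The MI_stiff call was lost without MI_stiff 2 (0.0704), Sham 2 (0.0533) or Sham 3 (0.0745). MI 1 had the highest Vegfb level of its group. MI_stiff against MI gave 0.88 ± 0.29 with adjusted p = 0.135, and it passed in 3 of 23 settings, at 1.16 with adjusted p = 0.0179 without MI 1, 0.0350 without MI_soft 4 and 0.0452 by DESeq2. MI_soft against MI gave 0.70 (adjusted p = 0.264), 0.98 without MI 1 (0.0329) and -0.27 with MI 1 as the only MI library (0.897). The cardiomyocyte marker sum was lower in each ligated library than in every Sham library, as Vegfb was. Its part in the Vegfb result was not tested.

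The 250 bases before the start of 4 of these genes are shown because Apln, Vegfa and Flt1 are known as genes induced by low oxygen through hypoxia-inducible factor (HIF), and because Apln, Vegfa and Vegfb were lower in MI_soft than in Sham. Sequences are from RefSeq on build GRCr8, printed in the direction of the gene, and 6 of the 10 genes matched an entry; the counts were made on build rn7. Capitals mark the HIF core letters ACGTG or GCGTG and the letters GGAAG, a core of ETS factors of endothelial genes, on either strand.
Apln, chrX:132091247-132091496, minus strand: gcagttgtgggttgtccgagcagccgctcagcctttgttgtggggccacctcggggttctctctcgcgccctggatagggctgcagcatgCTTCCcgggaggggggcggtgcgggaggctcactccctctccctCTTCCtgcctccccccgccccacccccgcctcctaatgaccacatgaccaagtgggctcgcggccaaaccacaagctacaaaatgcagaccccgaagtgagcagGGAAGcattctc
Vegfa, chr9:22452604-22452853, plus strand: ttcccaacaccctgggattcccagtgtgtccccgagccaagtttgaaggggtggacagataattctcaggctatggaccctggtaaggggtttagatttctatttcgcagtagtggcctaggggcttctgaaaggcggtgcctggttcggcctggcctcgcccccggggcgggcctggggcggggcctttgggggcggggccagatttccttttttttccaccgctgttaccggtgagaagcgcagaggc
Vegfb, chr1:213607153-213607402, minus strand: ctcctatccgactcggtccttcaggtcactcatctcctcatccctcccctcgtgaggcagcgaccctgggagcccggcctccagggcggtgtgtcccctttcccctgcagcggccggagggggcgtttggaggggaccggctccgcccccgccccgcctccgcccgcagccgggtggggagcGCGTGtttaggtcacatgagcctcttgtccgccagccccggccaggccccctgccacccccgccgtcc
Flt1, chr12:12333180-12333429, plus strand: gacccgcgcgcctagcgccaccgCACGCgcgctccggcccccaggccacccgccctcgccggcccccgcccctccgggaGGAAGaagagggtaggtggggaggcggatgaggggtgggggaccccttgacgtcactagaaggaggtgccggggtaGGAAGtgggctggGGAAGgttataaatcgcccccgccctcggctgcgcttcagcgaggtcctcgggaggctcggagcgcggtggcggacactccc
The letters ACGTG were in none of these 4 windows, and GCGTG was in Vegfb (1 match) and Flt1 (1 match). GGAAG was in Apln (3 matches) and Flt1 (3 matches). Over all 33469 entries of the same length, 16.6% held ACGTG, 25.9% GCGTG and 63.3% GGAAG on either strand. No match of one motif overlapped one of another in these windows. A second Vegfa entry starts at another position and is not shown. It held 1 match of GGAAG and 0 of ACGTG or GCGTG. Only these 250 bases were searched, and sites farther upstream or within the genes were not looked at.

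Flt1 varied widely within the ligated groups. It had 5.11, 14.2, 27.4 and 19.4 TPM in MI_stiff 1 to 4, 10.02, 5.54, 9.23 and 0.69 in MI_soft 1 to 4, 6.42, 0.91, 8.42 and 4.79 in MI 1 to 4, and 14.1, 8.77, 10.8 and 17.5 in Sham 1 to 4. MI 2 and MI_soft 4, both low-detection libraries, had the lowest values. Every MI library lay under every Sham library, yet the difference of -1.38 ± 0.58 had adjusted p = 0.0691 by edgeR; DESeq2 gave 0.0248 and limma-voom 0.0386, and the adjusted p was 0.0433 when only these groups were fitted, 0.0366 without MI 3 and 0.0242 without MI_soft 4. In CPM, MI_stiff (76.3 ± 38.3) and Sham (75.1 ± 16.8) differed by 0.02, with an interval of -1.16 to 1.21. MI_stiff exceeded MI by 1.41 (interval 0.19 to 2.62, adjusted p = 0.225) and MI_soft by 1.27 (0.06 to 2.48, adjusted p = 0.326), and neither passed in any of the 23 settings.

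Tie1 and Tek, the endothelial receptors of the angiopoietin arm, did not change by edgeR in any of the 6 comparisons. Tie1 averaged 55.7 ± 14.9 TPM in MI_stiff, 32.8 ± 3.19 in MI_soft, 47.5 ± 5.80 in MI and 35.4 ± 6.26 in Sham (SD, n = 4). Its log2 differences were 0.34 (-0.10 to 0.78) in MI_stiff, -0.17 (-0.61 to 0.27) in MI_soft and 0.40 (-0.04 to 0.84) in MI, each against Sham. Without the low-detection libraries Tie1 differed by 0.36 in MI_stiff against Sham (adjusted p = 0.0358), by -0.39 in MI_soft against Sham (0.0404) and by 0.75 in MI_stiff against MI_soft (0.0147). Tie1 in MI against Sham had adjusted p = 0.0431 without MI_soft 4, and in MI_soft against MI it differed by -0.57 (0.217) and by -0.68 without MI 1 (0.0484). Tek had 15.98, 27.4, 26.6 and 25.9 TPM in MI_stiff 1 to 4, 14.9, 12.6, 16.6 and 4.95 in MI_soft 1 to 4, 12.9, 20.5, 38.5 and 22.8 in MI 1 to 4, and 17.1, 13.5, 14.3 and 16.4 in Sham 1 to 4.

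The Tek result changed with the libraries that stood apart. MI 1 had less Tek than any Sham library, and the other MI libraries had more than all of them. MI against Sham gave 0.63 ± 0.32 with adjusted p = 0.134, 0.86 with adjusted p = 0.0098 without MI 1, and -0.78 with adjusted p = 0.0291 when MI 1 alone stood for MI and was assumed to vary like the other groups. MI_soft against MI gave -1.14 ± 0.32 with adjusted p = 0.149 by edgeR and 0.0295 by DESeq2. Without MI 1 that difference was -1.43 (adjusted p = 0.00213), and with MI 1 as the only MI library it was 0.47 (adjusted p = 0.796). MI_stiff against MI gave -0.28 with adjusted p = 0.684, and 1.14 with adjusted p = 0.0346 with MI 1 as the only MI library. MI_stiff exceeded MI_soft by 0.86 ± 0.32 with no overlap in CPM (adjusted p = 0.245), and by 0.68 with adjusted p = 0.0433 without the low-detection libraries.

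**Figure D3:**
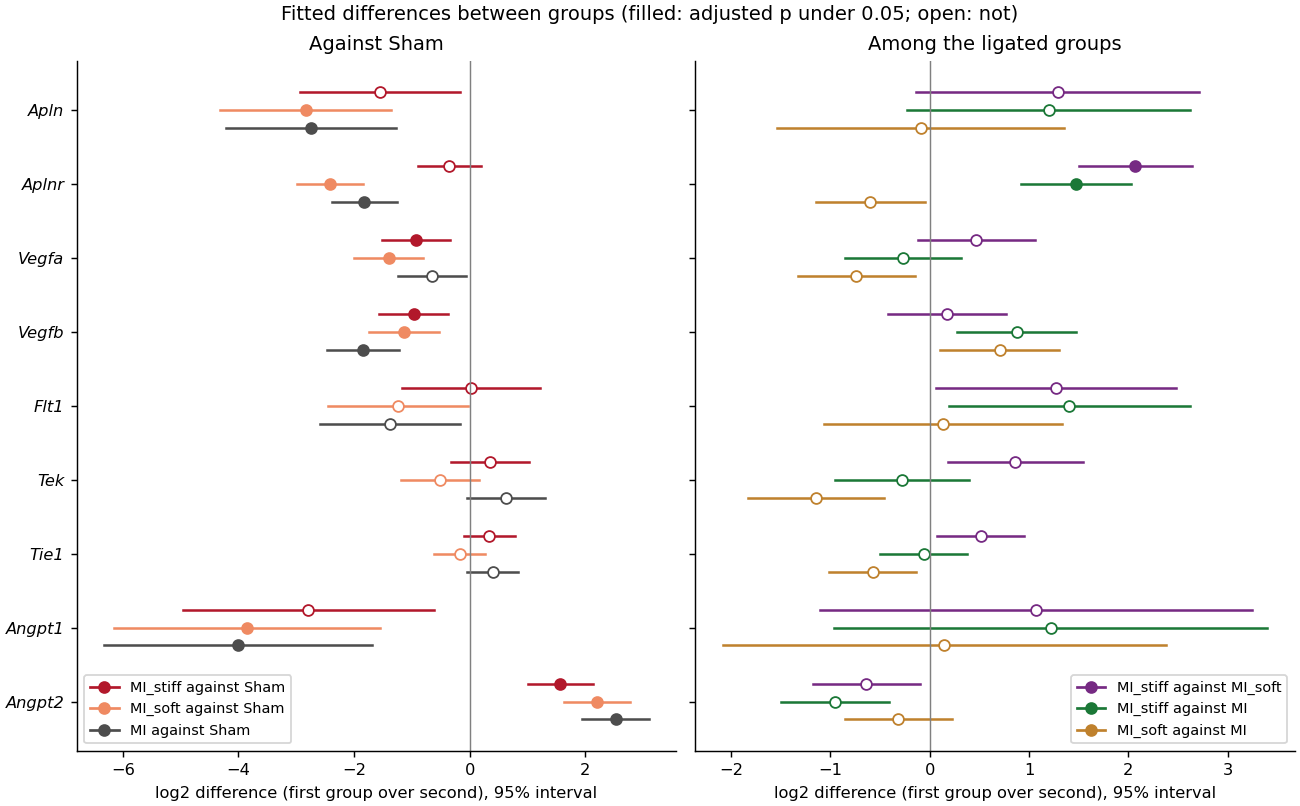
Fitted log2 differences (horizontal axis) of the 9 genes against Sham (left) and among the ligated groups (right), with 95% intervals. Filled points passed an adjusted p of 0.05 over all tested genes and open points did not. Angpt2 is above 0 in the 3 comparisons with Sham, and Aplnr is the only filled gene on the right.

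The angiopoietin ligands changed in opposite directions in MI_soft and MI, and in MI_stiff the rise of Angpt2 passed the test. Angpt2 had 4.96, 7.68, 5.57 and 8.81 TPM in MI_stiff 1 to 4, 8.74, 11.8, 12.0 and 5.30 in MI_soft 1 to 4, 14.8, 9.25, 7.16 and 12.8 in MI 1 to 4, and 1.76, 1.72, 1.73 and 2.11 in Sham 1 to 4. All 12 ligated libraries lay above all Sham libraries. In CPM, Angpt2 rose by 1.57 ± 0.27 in MI_stiff (14.6 ± 3.34; adjusted p = 0.00046), by 2.21 ± 0.27 in MI_soft (22.7 ± 5.40; adjusted p = 1.71e-05) and by 2.53 ± 0.27 in MI (28.2 ± 8.85; adjusted p = 3.52e-06), each against Sham (4.90 ± 0.64). Angpt2 amounted to 1.58% to 2.82% of the endothelial marker sum in MI_stiff, 2.77% to 6.04% in MI_soft, 2.74% to 4.97% in MI and 0.76% to 0.919% in Sham. Fibroblast markers rose with it, at 6 of 7 in MI_stiff, 6 in MI_soft and 7 in MI against Sham, with sums of 2810 to 4935 TPM in MI_stiff, 2193 to 4079 in MI_soft, 3443 to 6184 in MI and 645 to 853 in Sham. Lymphatic markers rose at 3 of 5 in each comparison, with 0 lower in MI_stiff, 1 in MI_soft and 1 in MI, and with sums of 82.9 to 165.8 TPM in MI_stiff, 198.4 to 295.7 in MI_soft, 276.4 to 1100 in MI and 25.1 to 44.8 in Sham. The lower gene was Prox1, at -4.54 in MI (edgeR adjusted p = 0.00418) and -2.86 in MI_soft (0.0425). Its difference in MI_stiff was -2.44 (0.0851). Macrophage markers rose at 6 of 6 in MI_stiff, 6 in MI_soft and 4 in MI, with sums of 348 to 1977 TPM in MI_stiff, 1228 to 2456 in MI_soft, 207 to 1141 in MI and 61.5 to 91.9 in Sham. Of all tested genes 12.7% rose and 8.44% fell in MI_stiff, 16.4% and 9.71% in MI_soft, and 20.2% and 16.4% in MI. The part of fibroblasts, lymphatic cells and macrophages in the Angpt2 result was not tested. The differences of Angpt2 from Sham are 2.97-fold, 4.63-fold and 5.76-fold, and each call held under all 23 alternative settings. MI_stiff against MI differed by -0.95 ± 0.26 with adjusted p = 0.076 and an interval of -1.50 to -0.41. That comparison passed in 4 of 23 settings (DESeq2 at 0.0206, and 0.0322, 0.0376 and 0.0338 without MI 1, MI 3 or MI_soft 4). MI_stiff against MI_soft gave -0.64 (interval -1.18 to -0.10, adjusted p = 0.278).

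Angpt1 had 18, 24, 26 and 29 counts in MI_stiff 1 to 4, 19, 1, 25 and 2 in MI_soft 1 to 4, 46, 0, 0 and 0 in MI 1 to 4, and 142, 178, 113 and 159 in Sham 1 to 4. Each ligated library thus held fewer counts than any Sham library, and all counts of the MI group were in MI 1. A count of 0 allows up to 3 counts, which is 0.251, 0.281 and 0.273 CPM in MI 2, 3 and 4 and covers counting error only. Angpt1 fell by 4.01 ± 1.10 in MI (0.707 ± 1.41 CPM; adjusted p = 0.00914) against Sham (12.3 ± 3.40 CPM), and its difference in MI_soft was -3.86 ± 1.09 (0.83 ± 0.82 CPM; adjusted p = 0.0148). The libraries at 0 are low-detection libraries. With MI 1 alone in the MI group the fall was 2.10. Over MI 2, 3 and 4 pooled, a limit of 3 counts is 0.0894 CPM, and the Sham mean was 138-fold above it. This pooled limit covers counting error only, not variation between libraries, and it leaves out MI 1. In MI_stiff (1.77 ± 0.27 CPM) the difference from Sham was -2.79 ± 1.03 with adjusted p = 0.0629. It passed in 8 of 23 settings, with adjusted p-values between 1.09e-05 and 0.138. The summed mural cell markers, from cells that are a known source of angiopoietin 1, overlapped between Sham and each ligated group (97.2 to 236.4 TPM in MI_stiff, 61.7 to 162 in MI_soft, 101.8 to 202.9 in MI and 94.2 to 203.2 in Sham). Single mural genes went opposite ways in MI_soft, with 1 of 6 higher and 1 lower, and in MI, with 2 higher and 2 lower. In MI_stiff 1 was higher and 0 lower. The share of all tested genes that changed was 21.2% in MI_stiff, 26.1% in MI_soft and 36.6% in MI. In MI, Rgs5 (-1.11, adjusted p = 0.0122) and Abcc9 (-3.24, 0.0112) fell with Angpt1 and Pdgfrb (1.21, 0.000241) and Kcnj8 (0.55, 0.0244) rose, and Rgs5 also fell in MI_soft (-1.06, 0.022). The part of mural cells in the Angpt1 result was not tested. Against MI, the log2 difference was 1.22 in MI_stiff (interval -0.97 to 3.40, edgeR adjusted p = 0.57). In MI_soft it was 0.15 (-2.09 to 2.38, adjusted p = 0.957). MI 1, at 2.83 CPM, lay above every MI_stiff (up to 1.95) and MI_soft library (up to 1.65). With MI 1 as the only MI library the differences were -0.67 and -1.41. Against MI 2, 3 and 4 alone, all low-detection libraries, the MI_stiff mean was 19.8-fold above the same pooled limit. The MI_soft mean was 9.27-fold above it, but it rests on MI_soft 1 and MI_soft 3. MI_soft 2 (0.076 CPM) and MI_soft 4 (0.167 CPM) lay under the limit of a single library, so no lower bound holds for MI_soft as a group.

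In Sham hearts Angpt2 was less abundant than Angpt1, at 0.239 to 0.406 times its TPM. The ratio of Angpt2 to Angpt1 was 5.84, 7.92, 3.82 and 5.15 in MI_stiff 1 to 4, 10.5, 196, 12.3 and 58.9 in MI_soft 1 to 4 and 6.48 in MI 1, and Angpt1 was listed at 0 in the remaining MI libraries. The ratio was therefore above 1 in each ligated library that had one and below 1 in each Sham library. The 2 highest ratios rest on 1 and 2 counts of Angpt1.

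**Figure D4:**
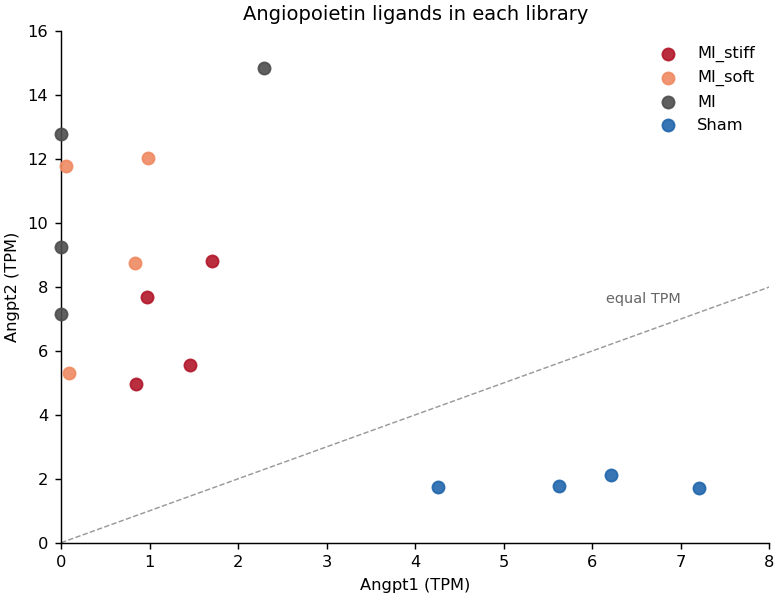
Angpt2 (vertical axis, TPM) against Angpt1 (horizontal axis, TPM) in each library, coloured by group; the dashed line marks equal TPM. The 4 Sham libraries lie below the line and the 12 ligated libraries above it.

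Ranked by mean TPM, Sham hearts had the order Vegfa (124.6), Vegfb (99.2), Aplnr (38.1), Tie1 (35.4), Tek (15.3), Flt1 (12.8), Apln (7.16), Angpt1 (5.82) and Angpt2 (1.83). Aplnr and Tie1 were closer than the SD of either (5.99 and 6.26 TPM), and Tek and Flt1 were closer than the SD of Flt1 (3.81 TPM). Aplnr ranked 4 in MI_stiff, 6 in MI_soft and 5 in MI. Angpt2, at the bottom in Sham, ranked 7 in MI_stiff, 5 in MI_soft and 6 in MI, and Angpt1 ranked 9 in each ligated group.

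Of the other VEGF family genes Vegfc, Vegfd, Pgf, Flt4, Nrp1 and Nrp2, 2 rose and 2 fell among 6 in MI against Sham. Pgf, placental growth factor and a further ligand of Flt1, rose by 2.80 ± 0.47 (11.7 ± 6.53 against 1.66 ± 0.229 CPM; adjusted p = 0.000238). It also rose in MI_soft (2.12 ± 0.46; adjusted p = 0.00275) and in MI_stiff (1.61 ± 0.46; adjusted p = 0.0184) against Sham. The VEGF co-receptors Nrp1 and Nrp2 fell in MI, with differences of -2.27 ± 0.58 and -2.20 ± 0.65 (adjusted p = 0.00611 and 0.0134). They also fell in MI_soft, with differences of -2.30 ± 0.58 and -2.03 ± 0.64 (adjusted p = 0.00783 and 0.0269), and their differences in MI_stiff were -1.18 and -0.93 (adjusted p = 0.147 and 0.315). The list's median was 0.84 in MI, 0.17 in MI_soft and 0.48 in MI_stiff. In MI against Sham 20.2% of all tested genes rose and 16.4% fell. No gene of it changed in the comparisons among ligated groups by edgeR.

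Of 9 listed partners of apelin and the angiopoietins 6 had a row, and 3 of them rose in MI, 2 in MI_soft and 2 in MI_stiff against Sham, with 0 lower. Svep1, an extracellular matrix protein that binds Tie1, rose by 2.07 ± 0.48 in MI (16.6 ± 8.44 against 3.94 ± 0.932 CPM; adjusted p = 0.00324), 1.89 ± 0.48 in MI_soft (adjusted p = 0.008) and 3.06 ± 0.50 in MI_stiff (adjusted p = 0.000326). Itgb1, an integrin subunit, rose by 0.85 ± 0.23 in MI (849 ± 216 against 470.4 ± 21.4 CPM; adjusted p = 0.00919), and its differences were 0.48 in MI_stiff and 0.53 in MI_soft (adjusted p = 0.153 and 0.103). Angpt4, a further Tie2 ligand, was near its detection limit in Sham (0.0198 ± 0.0396 CPM) and stood at 2.50 ± 2.71 CPM in MI_stiff (adjusted p = 0.00453), 0.932 ± 0.543 in MI_soft (adjusted p = 0.0181) and 0.925 ± 1.15 in MI (adjusted p = 0.0134), where it overlapped with Sham. The list's median was 0.93 in MI_stiff, 0.95 in MI_soft and 0.65 in MI. The share of all tested genes that rose was 12.7% in MI_stiff, 16.4% in MI_soft and 20.2% in MI.

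Of 8 genes of the Notch arm, which restrains sprouting downstream of VEGF, 1 rose and 1 fell in MI, 0 rose and 3 fell in MI_soft, and 1 rose and 0 fell in MI_stiff, against Sham. Jag1, a Notch ligand, rose by 1.39 ± 0.27 in MI (58.5 ± 17.8 against 22.3 ± 3.13 CPM; adjusted p = 0.00082) and by 1.15 ± 0.27 in MI_stiff (adjusted p = 0.00546), and its difference in MI_soft was 0.43 (adjusted p = 0.248). Jag2, another ligand, fell by 0.75 ± 0.23 in MI (adjusted p = 0.0166), and its difference in MI_soft was -1.06 ± 0.23 (adjusted p = 0.00262). Hey2, a transcriptional target of Notch, differed by -1.70 ± 0.76 in MI (adjusted p = 0.0893). The list's median was -0.04 in MI_stiff, -0.63 in MI_soft and 0.11 in MI. Beside these counts, 21.2% of all tested genes changed in MI_stiff, 26.1% in MI_soft and 36.6% in MI, against Sham.

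A list of 12 tested hypoxia genes held targets, oxygen sensors and the HIF subunit genes Hif1a and Epas1. Of these, 2 rose and 5 fell in MI, 1 rose and 3 fell in MI_soft, and 2 rose and 3 fell in MI_stiff, against Sham. Epas1 was among the 5 that fell in MI (-1.56, adjusted p = 0.0421). Pdk1, a kinase that limits pyruvate oxidation, fell by 2.28 ± 0.22 in MI (50.3 ± 13.8 against 244 ± 11.6 CPM; adjusted p = 1.21e-06). Egln3, an oxygen sensor that marks HIF for destruction, fell by 1.19 ± 0.24 (adjusted p = 0.000982), while Ndrg1, a stress-responsive gene, rose by 1.98 ± 0.25 (adjusted p = 1.66e-05). In MI_stiff against MI 2 of the 12 rose: Pdk1 by 0.96 ± 0.21 (adjusted p = 0.0387) and Slc2a1, the glucose transporter GLUT1, by 1.27 ± 0.27 (46.4 ± 16.1 against 19.2 ± 4.19 CPM; adjusted p = 0.0374). Vegfa, itself a HIF target, differed by -0.27 in that comparison (interval -0.86 to 0.32). The list's median against Sham was 0.34 in MI_stiff, -0.33 in MI_soft and -0.20 in MI. Over all tested genes 21.2% changed in MI_stiff, 26.1% in MI_soft and 36.6% in MI against Sham. In MI_stiff against MI 0.492% rose.

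Over the 16 libraries, the genes whose log2 CPM was most like that of Aplnr were Ucp3, a mitochondrial uncoupling protein (Pearson r = 0.912), Dpp4 (0.907) and Btbd3 (0.905). Tek was most like Tal1 (0.966), Prpf18 (0.949) and Dock9 (0.942), Tie1 like Gimap6 (0.941), Nos3 (0.914), the endothelial nitric oxide synthase, and RGD1310587 (0.891), and Vegfb like Coq8a (0.974), Tmem38a (0.968) and Sdhc (0.953), a subunit of mitochondrial complex II. Angpt2 was most like Eef1a1 (0.97), Fbln1 (0.966) and Cilp (0.961). Flt1 was most like Npc1 (0.975), Mat2a (0.975) and Snrk (0.965), and Vegfa like Ap5m1 (0.953), Tacc2 (0.949) and Iars2 (0.944). Apln was most like Tp53bp1 (0.924), Mrpl51 (0.909) and Dip2c (0.905), and Angpt1 like Eya4 (0.961), LOC304725 (0.946) and Atp2b2 (0.943). Among the 9 genes, Aplnr ran with Apln (0.764) and against Angpt2 (-0.783), and Vegfb ran against Angpt2 (-0.889). These values describe libraries that share their groups and their detection depth, and the step between Sham and ligated hearts enters each of them.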

How the data were processed

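Bulk RNA of the infarct zone was sequenced in 16 libraries, 4 per group, grouped and numbered by the labels. The authors deposited expected counts per gene, of which 0.785% were not whole and which were rounded here. The authors also deposited TPM values, scaled for gene length and depth. Per the submitters' processing notes, the tools include STAR (2.7.3a) and RSEM (1.3.1), and the build is rn7. The sources used here name no annotation or strand setting, and without strand a gene and an overlapping antisense gene cannot be told apart. None of the 9 genes had the same counts as another gene in every library.

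Low counts were filtered with edgeR's default by group, and libraries were scaled with TMM factors. The quasi-likelihood test of edgeR 4.0.16 (R 4.3.3), with robust estimation, was fitted once to the 4 groups, and p-values were adjusted over 11376 genes by Benjamini-Hochberg. The common biological coefficient of variation was 0.403. SE is the log2 difference over the square root of F. The test was also run on simulated counts, and the outcome is not reported here. DESeq2 1.42.0, limma-voom (limma 3.58.1), other scaling and filters, fits to only the groups compared, a replicate block and left-out libraries were alternatives. The members, lists, tests and low-detection libraries were chosen with earlier results of these data known. Named were all members, the 3 genes most correlated with each, and up to 3 genes per pathway list with the lowest adjusted p in MI against Sham. Slc2a1, Cdh5, Vwf, Ccl21, Prox1, Rgs5, Abcc9, Pdgfrb and Kcnj8 were named after their values were seen. The values of 1 marker gene are not reported here.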

Additional observations from a re-analysis of the deposited data

Results flagged for a closer look

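In 3 of 36 combinations of gene and group, 1 library stood far from the other libraries of its group (Dixon's test at the 95% level, on CPM); chance flags about 1 in 20 groups. Vegfb in MI_soft 4 was 151 CPM, with the next MI_soft library at 72.8. Tie1 in MI_soft 4 was 212 CPM, with the next at 131. Without MI_soft 4, the difference of MI_soft from Sham was -1.49 for Vegfb and -0.39 for Tie1. Angpt1 in MI 1 was 2.83 CPM, and the other MI libraries were at 0.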

How the results depend on the processing

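Over 54 results (9 genes in 6 comparisons) and 23 settings, 1149 of 1237 values kept their direction and their side of the threshold, 14 lost a call, 41 gained one with the same sign and 33 changed sign, of which 2 (Tek in MI against Sham and in MI_stiff against MI, with MI 1 as the only MI library) also passed the threshold. Several settings moved counts of changed genes by over 1.5 times, and the cause was not tested. MI_soft against MI had 293 with DESeq2, 7 with limma-voom, 0 with only these groups, 0 with the replicate block and 11 without the low-detection libraries. MI_stiff against MI had 583 with DESeq2, 86 with limma-voom, 82 without a filter, 13 with only these groups, 34 with the block and 215 without the low-detection libraries. MI_stiff against MI_soft had 278 with DESeq2, 17 with limma-voom, 3 with the block and 243 without the low-detection libraries. MI_stiff against Sham had 4523 with only these groups and 4986 without the low-detection libraries, and MI_soft against Sham had 4455 without them. limma-voom split the changed genes into 1892 higher and 2338 lower in MI against Sham (2296 and 1869 with edgeR), and 1628 and 1576 in MI_soft against Sham (1860 and 1105). Leaving out 1 library gave 0 to 1508 genes in MI_soft against MI and 11 to 1253 in MI_stiff against MI (both highest without MI 1), 4 to 57 in MI_stiff against MI_soft, 3310 to 5053 in MI, 2155 to 3375 in MI_soft and 1690 to 3220 in MI_stiff against Sham.

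Among the genes, the log2 difference of Flt1 in MI_stiff against Sham was -0.0023 with DESeq2 size factors and with DESeq2, -0.12 with limma-voom and -0.058 with the block. Without the low-detection libraries, MI_soft against MI gave 0.50 for Apln, 0.19 for Vegfa, -0.27 for Vegfb, 0.47 for Tek and -1.41 for Angpt1, MI_stiff against MI gave 0.48 for Vegfa, 1.14 for Tek, 0.28 for Tie1 and -0.67 for Angpt1, and MI against Sham gave -0.78 for Tek; here MI 1 alone stood for MI. With 1 library left out, ranges that crossed 0 were -0.80 to 0.52 (Apln), -0.20 to 0.54 (Flt1) and -0.42 to 6.41 (Angpt1) in MI_soft against MI, -0.44 to 0.13 (Vegfa), -0.55 to 0.040 (Tek) and -0.15 to 0.10 (Tie1) in MI_stiff against MI, and -0.31 to 0.29 (Flt1) in MI_stiff against Sham. The 6.41 was fitted against libraries at 0 and is no bound. Deviations of same-numbered libraries correlated at -0.285 to 0.176, so the numbers were not taken as pairs, and the block changed no call of the 9 genes. Apln and Angpt1, with few counts in ligated libraries, are the genes most limited by low counts. MI_soft 4, with 3 and 2 counts of them, had the highest library total (14456186).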
